A study of Saccharomyces cerevisiae with 12 samples.

Results

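The genes described here encode the mitochondrial machinery that builds iron-sulfur clusters, the cofactors of iron and sulfide that many enzymes need. The members were taken by name, as the probe sets annotated to *NFS1*, *YFH1*, *ISU1*, *ISU2*, *SSQ1*, *JAC1*, *GRX5*, *ISA1*, *ISA2* and *IBA57*, and all 10 were found, each with a single probe set, among 5449 named genes on Affymetrix Yeast Genome 2.0 arrays. RNA came from *S. cerevisiae* cells of the *com2*Δ mutant with 0.5 mM SO2, of the *com2*Δ mutant in control conditions, of the parental strain BY4741 with 0.5 mM SO2 and of BY4741 in control conditions, 3 biological replicates each, after 60 min in MMB minimal medium at pH 3.5. Both strains are haploid *MATa* cells in which *URA3*, *LEU2*, *MET17* (alias *MET15*) and *HIS3* are inactive (ura3-delta-0, met15-delta-0, and also leu2-delta-0 as well as his3-delta-1), so every culture was given histidine, leucine, methionine and uracil, and the mutant is a single deletion strain. Com2 is a zinc finger transcription factor related to Msn2 and Msn4.

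In yeast, Nfs1 takes sulfur from cysteine and delivers it to the scaffold proteins Isu1 and Isu2, with frataxin (Yfh1) helping this step. The chaperone Ssq1 and its partner Jac1 then release the new cluster from the scaffold, Grx5 carries it, and Isa1, Isa2 and Iba57 act late, in making the larger clusters of enzymes such as aconitase, biotin synthase and lipoate synthase. The pathway is essential because cytosolic and nuclear iron-sulfur proteins depend on it too, and one of its clients, sulfite reductase, is the enzyme that turns sulfite into sulfide.

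Intensities are on a linear scale. *COM2* read 9.35 to 20.3 on the *com2*Δ arrays and 2368 to 3680 on the BY4741 arrays, and the deleted markers *LEU2*, *MET17* and *URA3* read no more than 152 on any array. The a-cell gene *STE2* was at 9782 or above on every array. The alpha-cell gene *STE3*, which a-cells should not use, read 784 to 1084 in *com2*Δ cells with SO2, 696 to 873 in *com2*Δ control cells, 166 to 243 in BY4741 cells with SO2 and 607 to 841 in BY4741 control cells, and its part in the results was not tested. All 10 members lay above 152 on every array, from 272 to 13445, but so did *STE3*, so a reading above the deleted markers does not by itself show that a gene is expressed. The third BY4741 control array stood apart from its replicates over the whole table, with median absolute log2 differences of 0.27 and 0.23 from the other 2 arrays, against 0.10 between these. On this array 8 of the 10 members were above both replicates, at a median log2 difference of 0.42 from their mean (−0.03 over all features), so values that rest on it are given with and without it where a call depends on it. With 3 arrays in a group, precision is limited by their number.

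Changed genes are those that differed 2-fold or more between groups in limma, fitted over 5667 features, at p-values under 0.05 with the false discovery rate held under 10%. In *com2*Δ cells 1 of the 10 genes rose with SO2 and none fell, and in BY4741 cells 4 rose and none fell, although 2 members in each strain had lower values at an unadjusted p under 0.05 in limma. At that unadjusted p, 1182 of 5667 features were lower in *com2*Δ and 1797 in BY4741 cells. Over all features 5.88% were called in *com2*Δ cells (3.14% higher and 2.74% lower with SO2) and 18.8% in BY4741 cells (10.5% higher and 8.36% lower). With no fold limit, 4 members in *com2*Δ and 8 in BY4741 cells had an adjusted p under 0.05, against 28.9% and 59.5% of all features. The arrays with and without SO2 did not overlap for 8 members in *com2*Δ and 9 in BY4741 cells, against 47.1% and 62.8% of all features. The median log2 change of the 10 genes was 0.23 in *com2*Δ cells (0.01 over all features) and 0.78 in BY4741 cells (0.00 over all features). *ISU1* rose in both strains, while *ISU2*, *IBA57* and *ISA1* passed the threshold in BY4741 cells alone. The test of the difference between the responses was passed by *ISU2*, *IBA57* and *JAC1*. Since each array averages a whole culture, a smaller share of cells making an RNA cannot be told apart from less RNA in each cell. The paper reports that *com2*Δ cells with SO2 were less viable than the other strains, mainly during adaptation. It also considers it likely that many strain differences reflect another physiological state of the more susceptible mutant. What this means for the values here was not tested.

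**Figure D1:**
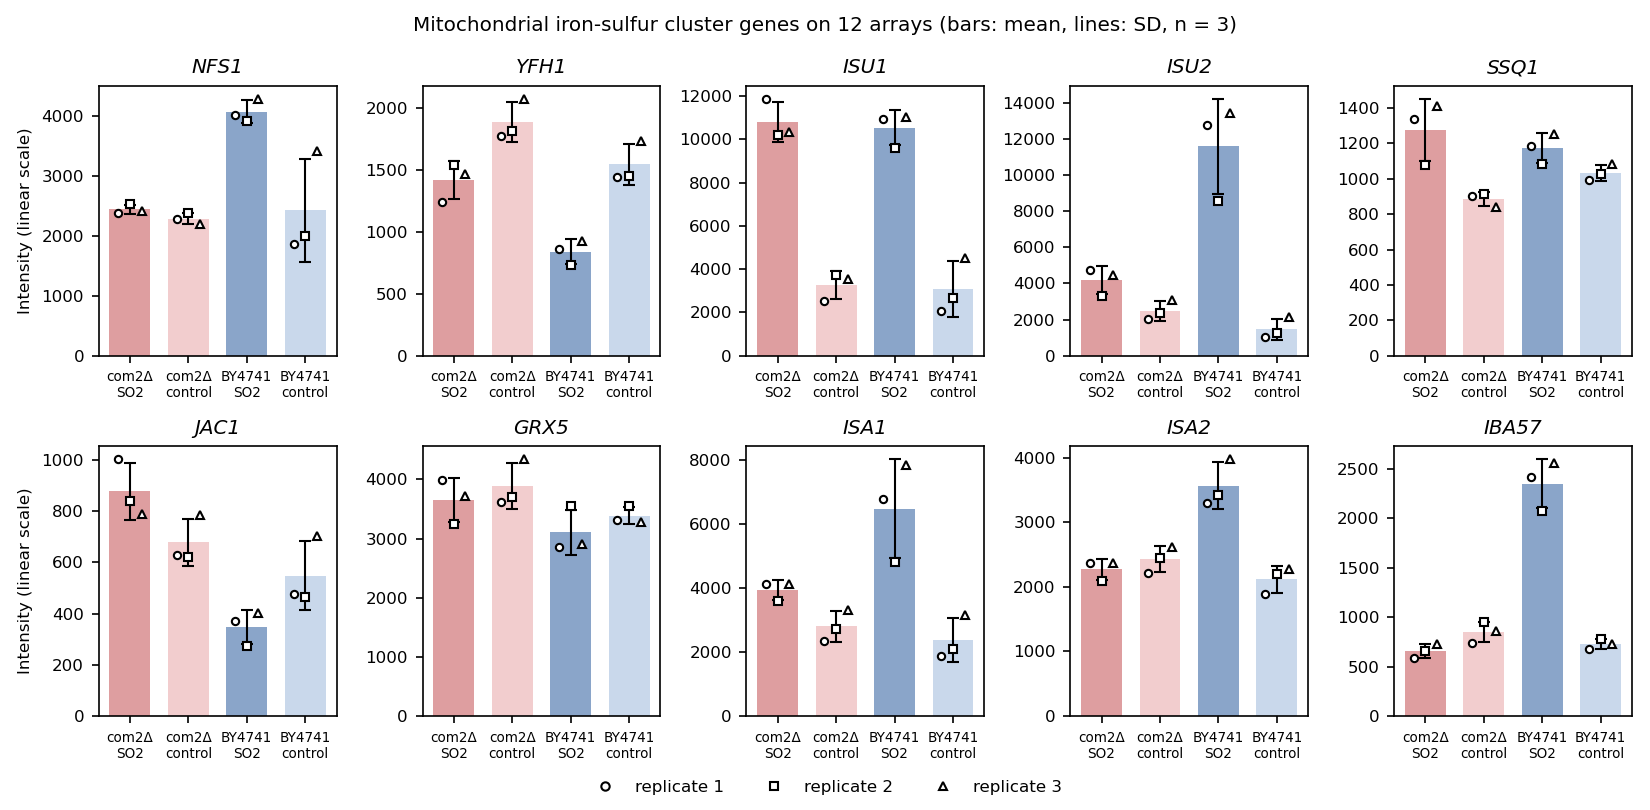
Intensity on a linear scale (y axis, starting at 0) of the 10 mitochondrial iron-sulfur cluster genes in com2Δ and BY4741 cells with SO2 and in control conditions (x axis). Bars are means of 3 arrays, lines are SDs and symbols are single arrays by replicate number. ISU1 is high with SO2 in both strains, whereas ISU2 and IBA57 are highest in BY4741 cells with SO2, at means of 11587 and 2353.

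*ISU1* (YPL135W) encodes the main scaffold protein. It had intensities of 11875, 10183 and 10335 in *com2*Δ cells with SO2, against 2541, 3742 and 3523 in *com2*Δ control cells. In BY4741 cells its intensities were 10963, 9618 and 11044 with SO2, against 2050, 2680 and 4533 in control conditions. Every array with SO2 was thus more than double every control array of either strain, and the strains overlapped in both conditions. *ISU1* rose 3.34-fold in *com2*Δ cells (log2 change 1.74, standard error or SE 0.24, adjusted p = 0.000467 from limma) and 3.60-fold in BY4741 cells (1.85, SE 0.24, adjusted p = 6.16e-05). The difference of the responses, *com2*Δ minus BY4741, was −0.11 on the log2 scale with a 95% interval of −0.86 to 0.65, which still allows a response somewhat smaller or larger in the mutant.

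*ISU2* (YOR226C) encodes the paralogous scaffold protein. Its intensities were 4755, 3319 and 4468 in *com2*Δ cells with SO2, against 2009, 2351 and 3060 in *com2*Δ control cells. In BY4741 cells they were 12750, 8566 and 13445 with SO2, against 1048, 1233 and 2131 in control conditions. The arrays with SO2 lay above the control arrays in both strains, and among the SO2 cultures those of *com2*Δ all lay below those of BY4741. *ISU2* had a log2 change of 0.76 with SO2 in *com2*Δ cells (SE 0.27, adjusted p = 0.0558), which is under 2-fold, and rose 8.11-fold in BY4741 cells (3.02, SE 0.27, adjusted p = 4.24e-06). The response in *com2*Δ minus that in BY4741 cells was −2.26 on the log2 scale (SE 0.39, adjusted p = 0.000951, limma's interaction contrast). Under SO2, *ISU2* was 2.75-fold lower in *com2*Δ than in BY4741 cells (log2 change of −1.46, adjusted p = 0.000737). The comparisons between strains and between conditions share arrays.

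In control conditions *ISU2* was at 2473 ± 536 in *com2*Δ and 1471 ± 579 in BY4741 cells (SD, n = 3), a log2 difference of 0.80 (SE 0.27, adjusted p = 0.21) that did not pass. Without the third BY4741 control array it passed, at 1.10 (adjusted p = 0.0349). Without that array the response in BY4741 cells was still called, as was the difference of responses, then −2.56. Whether the probes of *ISU1* and *ISU2*, which encode closely similar proteins, pick up each other's RNA was not tested.

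*IBA57* (YJR122W) encodes one of the late-acting factors. It had intensities of 583, 657 and 728 in *com2*Δ cells with SO2, against 742, 948 and 860 in *com2*Δ control cells. In BY4741 cells it was at 2417, 2080 and 2562 with SO2, against 675, 779 and 732 in control conditions. The BY4741 cultures with SO2 stood far above the other 9 arrays, and the *com2*Δ cultures with SO2 averaged below their controls. All readings on those 9 arrays (583 to 948) lay within the range of the alpha-cell gene *STE3* (166 to 1084). What this means for the fold changes of *IBA57* was not tested. The log2 fold change was −0.37 in *com2*Δ cells (SE 0.13, adjusted p = 0.045), under 2-fold, whereas *IBA57* rose 3.22-fold in BY4741 cells (1.69, SE 0.13, adjusted p = 1.08e-06). The difference of responses was −2.06 (SE 0.18, adjusted p = 1.67e-05). With SO2, *IBA57* was 3.59-fold lower in *com2*Δ than in BY4741 cells (adjusted p = 9.6e-07).

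*ISA1* (YLL027W), one of the genes that the study named from these samples, was at 4121, 3589 and 4121 in *com2*Δ cells with SO2, against 2359, 2728 and 3313 in *com2*Δ control cells. Its BY4741 intensities were 6783, 4815 and 7868 with SO2, against 1872, 2099 and 3151 in control conditions. The arrays of the groups did not overlap in either strain. *ISA1* had a log2 change of 0.51 in *com2*Δ cells (SE 0.22, adjusted p = 0.103) and rose 2.75-fold in BY4741 cells (1.46, SE 0.22, adjusted p = 0.000159). The difference of responses was −0.95 (SE 0.31, adjusted p = 0.0271), just under the 2-fold limit. It passed that limit without *com2*Δ control replicate 1 (−1.07), without BY4741 replicate 2 with SO2 (−1.15) and without the third BY4741 control array (−1.18).

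*ISA2* (YPR067W), the partner of *ISA1*, was measured at 2373, 2088 and 2369 in *com2*Δ cells with SO2, against 2219, 2451 and 2620 in *com2*Δ control cells, which overlap. In BY4741 cells it was at 3295, 3424 and 3982 with SO2, against 1884, 2207 and 2277 in control conditions, which do not. The log2 fold changes were −0.09 in *com2*Δ cells (adjusted p = 0.582) and 0.75 in BY4741 cells (adjusted p = 0.000171), a difference of −0.84 (SE 0.16, adjusted p = 0.00177). The adjusted p was thus low for BY4741 cells and for the difference, but neither reached 2-fold.

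**Figure D2:**
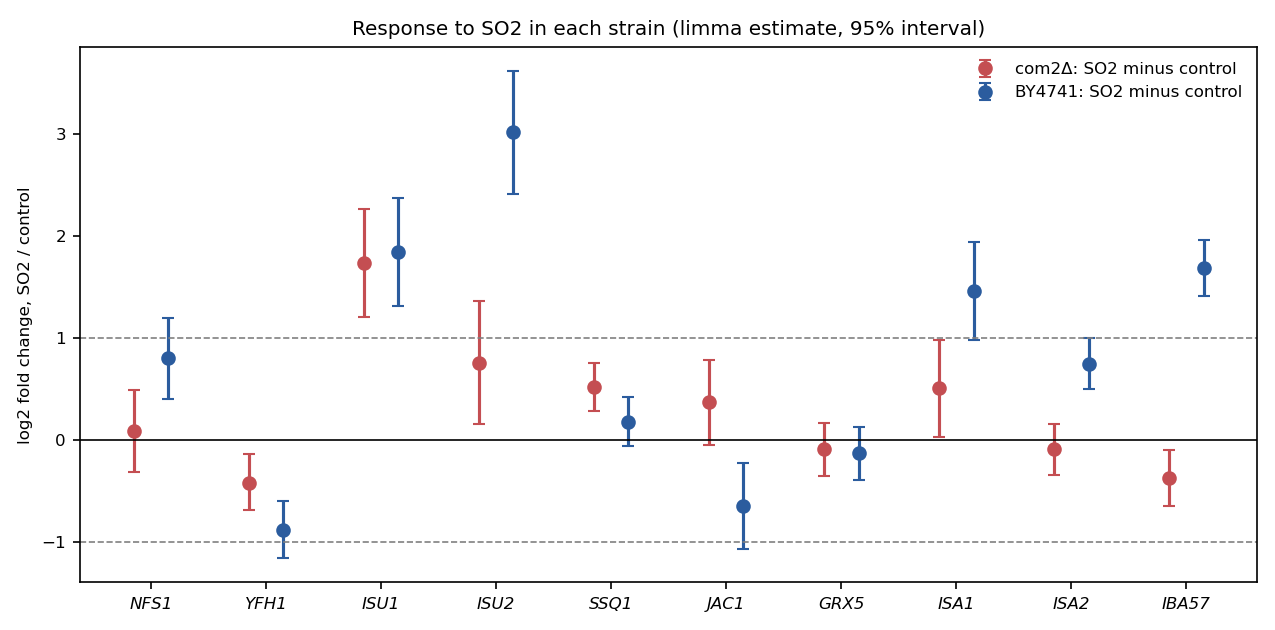
Log2 fold change of SO2 over control (y axis) for each of the 10 genes (x axis), in com2Δ cells (red, left) and BY4741 cells (blue, right). Points are limma estimates from 3 arrays per group, lines are 95% intervals and dashed lines mark 2-fold. The intervals of ISU2, IBA57, ISA2 and JAC1 do not overlap between the strains, and those of ISA1 meet at 0.98. Those of ISU1, at 1.74 in com2Δ and 1.85 in BY4741 cells, overlap almost fully.

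Neither gene of sulfur donation passed the 2-fold limit. *NFS1* (YCL017C), the cysteine desulfurase, had 2380, 2522 and 2403 in *com2*Δ cells with SO2, against 2278, 2374 and 2200 in *com2*Δ control cells. In BY4741 cells it had 4015, 3908 and 4278 with SO2, against 1857, 1995 and 3408 in control conditions. The highest of the BY4741 control values is that of the third array, which lies nearer to the cultures with SO2 than to its replicates. The log2 fold change was 0.09 in *com2*Δ cells (95% interval −0.31 to 0.49) and 0.80 in BY4741 cells (SE 0.18, adjusted p = 0.00263). Without the third BY4741 control array the BY4741 value was 1.08 and passed the 2-fold limit, which made 5 of the 10 genes higher with SO2 (50.0%, against 20.8% of all features called in either direction in that fit). Between the strains this response differed by −0.71 (SE 0.26, adjusted p = 0.0425).

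*YFH1* (YDL120W), yeast frataxin, had lower values with SO2 in both strains. It was at 1244, 1542 and 1470 in *com2*Δ cells with SO2, against 1776, 1816 and 2075 in *com2*Δ control cells. In BY4741 cells it was at 860, 731 and 928 with SO2, against 1447, 1453 and 1736 in control conditions. All arrays with SO2 were below all control arrays of the same strain. The log2 fold changes were −0.42 in *com2*Δ cells (adjusted p = 0.0292) and −0.88 in BY4741 cells (adjusted p = 0.000117), both under 2-fold, and their difference was 0.47 (SE 0.18, adjusted p = 0.0527). With SO2, *YFH1* was 1.69-fold higher in *com2*Δ than in BY4741 cells.

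Among the genes of cluster transfer, *JAC1* (YGL018C), the J-protein that recruits Ssq1 to the scaffold, had fold changes of opposite sign in the strains. Its intensities were 1003, 840 and 787 in *com2*Δ cells with SO2, against 628, 621 and 785 in *com2*Δ control cells. In BY4741 cells they were 369, 272 and 401 with SO2, against 476, 463 and 704 in control conditions. The highest BY4741 control value is again that of the third array, and the lowest *com2*Δ value with SO2 is just above the highest of the *com2*Δ controls. Neither response reached 2-fold, with log2 changes of 0.37 in *com2*Δ (SE 0.19, adjusted p = 0.168) and −0.65 in BY4741 cells (SE 0.19, adjusted p = 0.0124). The difference of responses was 1.02 (SE 0.27, adjusted p = 0.0109), at the limit of 2-fold. It fell short of it without *com2*Δ replicate 1 with SO2 (0.92), *com2*Δ control replicate 1 (0.97) or 2 (0.96), BY4741 replicate 2 with SO2 (0.85) or the third BY4741 control array (0.82). Under SO2, *JAC1* was 2.54-fold higher in *com2*Δ than in BY4741 cells (log2 change of 1.35, SE 0.19, adjusted p = 0.000116), and leaving out any single array did not end that call. All readings of *JAC1* lay within the range of the alpha-cell gene *STE3* (166 to 1084). Under SO2 *STE3* was also higher in *com2*Δ cells, at a log2 change of 2.21, and what this means for *JAC1* was not tested. *JAC1* was among the 25% dimmest features.

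*SSQ1* (YLR369W), the Hsp70 chaperone of the pathway, and *GRX5* (YPL059W), the monothiol glutaredoxin that receives the cluster, were called in no comparison. *SSQ1* ran from 1080 to 1413 in *com2*Δ cells with SO2, against 840 to 914 in *com2*Δ control cells, and from 1083 to 1254 in BY4741 cells with SO2, against 993 to 1082 in BY4741 control cells. Its log2 fold changes were 0.52 in *com2*Δ (SE 0.11, adjusted p = 0.00497) and 0.18 in BY4741 cells (adjusted p = 0.175), both under 2-fold. *GRX5* lay between 2866 and 4344 on all 12 arrays, with log2 changes of −0.09 in *com2*Δ (95% interval −0.35 to 0.17) and −0.13 in BY4741 cells (95% interval −0.39 to 0.13).

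The strains were also set against each other within each condition. With SO2, 1 of the 10 genes was higher (*JAC1*) and 2 were lower (*ISU2* and *IBA57*) in *com2*Δ than in BY4741 cells, where 17.7% of all features were called, 7.62% higher and 10% lower. The arrays of the strains did not overlap for 7 members (66.8% of all features). Without a fold limit, 7 of the 10 had an adjusted p under 0.05 in that comparison, against 62.3% of all features. In control conditions no member was called, against 0.706% of all features (0.353% higher and 0.353% lower). There the log2 differences ran from −0.22 for *SSQ1* to 0.80 for *ISU2*, and 2 members, *YFH1* and *ISU2*, had an unadjusted p under 0.05 in limma (0.0411 and 0.0135). At that unadjusted p, 336 of 5667 features were higher and 434 lower. Between the responses, 3 members differed (17.5% of all features, 8.17% upward and 9.30% downward), and without a fold limit 6 of the 10 had an adjusted p under 0.05 (44.9% of all features).

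The order of the 4 groups differed between members. *ISU2* averaged 4180 in *com2*Δ cells with SO2, 2473 in *com2*Δ control cells, 11587 in BY4741 cells with SO2 and 1471 in BY4741 control cells. *ISA1* averaged 3944, 2800, 6489 and 2374 in the same groups. Both were thus highest in BY4741 cells with SO2, and among neighbours in the order only the arrays of the control groups overlapped. *JAC1* averaged 877 in *com2*Δ cells with SO2, 678 in *com2*Δ control cells, 347 in BY4741 cells with SO2 and 548 in BY4741 control cells. It was highest in the mutant and lowest in BY4741 cells with SO2, and again only the control groups overlapped.

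Genes whose log2 values, centred per gene, lay nearest to those of a called member over the 12 arrays were listed for the 5 members called in any comparison. The nearest to *IBA57* was *CFD1*, a scaffold gene of cytosolic iron-sulfur assembly, at a root mean square difference of 0.124, where *IBA57* itself had a SD of 0.744 over the arrays. *CHL4* and *CDC23* followed at 0.133 and 0.135. The nearest to *ISA1* was *LYS21*, a homocitrate synthase gene of lysine synthesis (0.105), before *MOB1* (0.126) and *DAL82* (0.129), at a SD of 0.608. *JAC1* had *NPA3* (0.115), *ECM19* (0.121) and *RNR4* (0.139) nearest, at a SD of 0.538. The neighbours of the scaffold genes had larger differences. Beside *ISU2* (SD 1.156) these were 0.251 for *OAC1*, 0.258 for *HST3* and 0.266 for *MCT1*. Beside *ISU1* (SD 0.940) they were 0.266 for *SNP1*, 0.269 for *SPC24* and 0.274 for *DUR3*. The scaffold genes also had the largest SDs of the 5 members, so the differences do not rank how closely the patterns match. With 4 groups to define the pattern, many genes can come near to it.

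Further genes of the pathway were described from lists of textbook members. Of 12 other mitochondrial genes of iron-sulfur metabolism, none was called with SO2 in *com2*Δ cells (5.88% of all features). There 2 were higher at an unadjusted p under 0.05 in limma, as were 1191 of 5667 features. In BY4741 cells 2 rose, where 10.5% of all features were higher and 18.8% were called in either direction. These were *YAH1*, the ferredoxin that supplies electrons for cluster synthesis, and *ATM1*, the transporter of the inner membrane that cytosolic assembly depends on. *YAH1* had 2434, 2818 and 2060 in *com2*Δ cells with SO2, against 1306, 1517 and 1590 in *com2*Δ control cells, and 6626, 3902 and 6242 in BY4741 cells with SO2, against 750, 797 and 2372 in BY4741 control cells. Its log2 fold changes were 0.72 in *com2*Δ and 2.28 in BY4741 cells, a difference of −1.56 (SE 0.53, adjusted p = 0.0321), or −2.09 without the third BY4741 control array. *ATM1* had log2 changes of 0.09 in *com2*Δ and 1.16 in BY4741 cells, a difference of −1.07 that was under 2-fold without *com2*Δ replicate 1 with SO2 (−0.99) and without BY4741 control replicate 1 (−0.92) or 2 (−0.99). *ISD11*, the partner protein of Nfs1, had log2 changes of 0.15 in *com2*Δ and 0.11 in BY4741 cells. *MGE1*, the nucleotide exchange factor of mitochondrial Hsp70, was 2.02-fold higher in *com2*Δ than in BY4741 cells with SO2, a call that ended without BY4741 replicate 3 with SO2 (0.97 on the log2 scale). Its difference of responses of 0.92 passed the limit without the third BY4741 control array (1.01). *ERV1*, a sulfhydryl oxidase that has been linked to cluster export, had a difference of −0.96, which passed without *com2*Δ control replicate 1 (−1.12), BY4741 replicate 2 with SO2 (−1.01) or BY4741 control replicate 2 (−1.03).

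Of 12 genes of cytosolic iron-sulfur assembly, none was called in *com2*Δ cells with SO2 (5.88% of all features). There 6 were higher at an unadjusted p under 0.05 in limma, as were 1191 of 5667 features. The list medians were log2 changes of 0.23 in *com2*Δ and 0.85 in BY4741 cells. In BY4741 cells 6 rose, against 10.5% of all features. The difference of responses was called downward for the same 6 and upward for none, against 9.30% of all features downward. *GRX4*, a cytosolic glutaredoxin of iron sensing, had 2187, 2158 and 2391 in *com2*Δ cells with SO2, against 1703, 2314 and 2125 in *com2*Δ control cells, and 10314, 9499 and 11535 in BY4741 cells with SO2, against 1383, 1957 and 2020 in BY4741 control cells. The *com2*Δ groups overlapped, while the BY4741 groups were far apart. Its difference of responses was −2.42 (SE 0.22, adjusted p = 2.28e-05). The scaffold gene *CFD1* had −1.93, *NAR1*, which passes clusters on to the targeting complex, −1.96, and *CIA2* of that complex −1.38. *DRE2* and *TAH18*, which form the electron transfer chain of the pathway, had −1.49 and −1.07. *TAH18* lay at the limit, since its rise in BY4741 cells, at a log2 change of 1.0, was no longer called without BY4741 replicate 1 (0.97) or 2 (1.0, just under 2-fold) with SO2 or the third BY4741 control array (0.95), and its difference not without *com2*Δ replicate 1 with SO2. *GRX3* was higher in *com2*Δ than in BY4741 cells with SO2 (log2 change of 1.05, and 0.91 without BY4741 replicate 2 with SO2, where it was not called).

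Among 21 genes of iron-sulfur proteins, 1 rose in *com2*Δ cells with SO2 and none fell, and in BY4741 cells 5 rose and 1 fell. Over all features 3.14% were higher and 2.74% lower in *com2*Δ cells, and 10.5% were higher and 8.36% lower in BY4741 cells. Of this list *LYS4*, *LEU1*, *ILV3*, *BIO2* and *MET5* were named by the study from these samples, and all 5 genes that rose are among them, so the count is not independent evidence. *BIO2*, biotin synthase, was the gene that rose in both strains, with log2 changes of 1.15 in *com2*Δ and 3.59 in BY4741 cells and a difference of −2.44 (SE 0.30). The *com2*Δ value was 0.96, and not called, without *com2*Δ replicate 2 with SO2. *MET5*, the beta subunit of sulfite reductase, had −0.51 in *com2*Δ and 3.54 in BY4741 cells, a difference of −4.05 (SE 0.18, adjusted p = 2.35e-07). The differences were −1.95 for *LYS4* (homoaconitase), −1.51 for *LEU1* (isopropylmalate isomerase) and −1.35 for *ILV3* (dihydroxyacid dehydratase). *LIP5*, lipoate synthase, had log2 changes of −0.21 in *com2*Δ and 0.95 in BY4741 cells and a difference of −1.16 (SE 0.16), and its BY4741 value passed without BY4741 replicate 2 with SO2 (1.04). *DNA2*, a nuclease and helicase of DNA replication, had a difference of −1.04 that ended without *com2*Δ control replicate 1 (−0.97), BY4741 replicate 3 with SO2 or the third BY4741 control array. Upward, *RIP1*, the Rieske protein of respiratory complex III, had 0.38 in *com2*Δ cells and fell in BY4741 cells (−1.41), a difference of 1.80 (SE 0.22). *PRI2*, a subunit of DNA primase, was 2.39-fold higher in *com2*Δ than in BY4741 cells with SO2 (log2 change of 1.26, SE 0.15, adjusted p = 3.08e-05). Its difference of responses was 0.94, which passed without *com2*Δ control replicate 3 (1.03) or BY4741 control replicate 1 (1.08). *ACO1*, aconitase, had −0.16 in *com2*Δ and 0.16 in BY4741 cells and was not called.

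**Figure D3:**
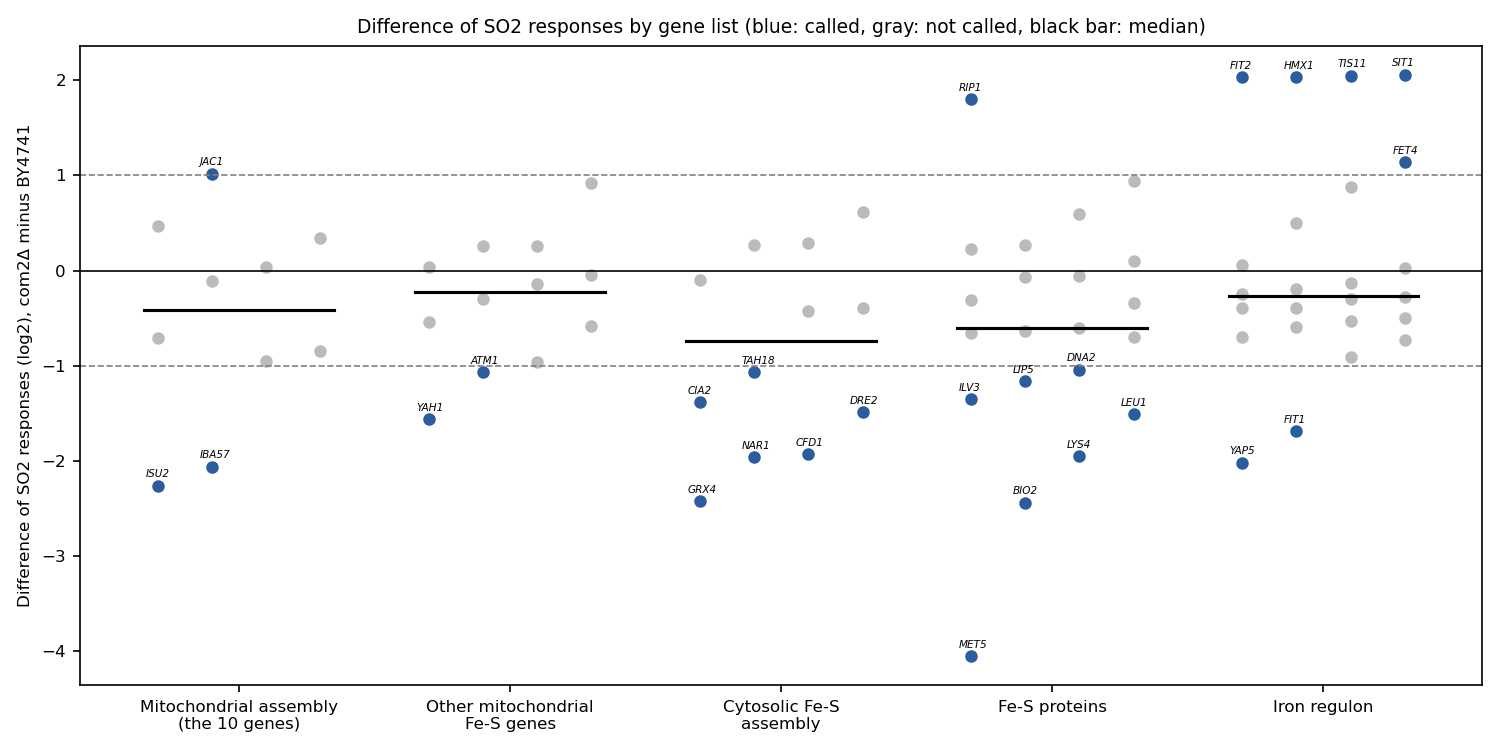
Difference of the SO2 responses on the log2 scale, com2Δ minus BY4741 (y axis), for the genes of 5 lists (x axis). Each point is a gene, blue and named where called and gray where not, black bars are list medians and dashed lines mark 2-fold. The 10 mitochondrial assembly genes run from −2.26 (ISU2) to 1.02 (JAC1), and the 6 called genes of cytosolic assembly all lie below 0.

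The genes of iron uptake and its control did not move in a single direction. Of 24 measured, in *com2*Δ cells 3 rose with SO2 and 1 fell, whereas 2 rose and 3 fell in BY4741 cells, with list medians of 0.07 and 0.02. Over all features 5.88% were called in *com2*Δ and 18.8% in BY4741 cells. Responses differed between the strains for 7 genes, upward for 5 and downward for 2, against 17.5% of all features. Upward were *FIT2*, a cell wall mannoprotein of siderophore retention (2.03), the siderophore transporter gene *SIT1* (2.06), the heme oxygenase gene *HMX1* (2.03), *TIS11*, which promotes decay of mRNAs when iron is scarce (2.05), and the low affinity iron transporter gene *FET4* (1.14, and 0.95 without *com2*Δ replicate 1 with SO2). Downward were *FIT1* (−1.69) and *YAP5*, an activator of genes of iron storage whose product binds iron-sulfur clusters (−2.02). *FIT1* read 138, 177 and 160 in *com2*Δ cells with SO2, around the highest reading of the deleted markers (152), so the size of its difference is uncertain. The alpha-cell gene *STE3* also had a called difference, of 2.12 (SE 0.26). All readings of *FRE2*, and some of *FIT1*, *FIT2*, *HMX1*, *TIS11*, *YAP5*, *AFT1* and *FRE1*, lay within the range of *STE3* (166 to 1084). For *YAP5* these were all readings outside BY4741 cells with SO2. Genes of this list that are not named here also had readings in that range. What this means for their values was not tested. *YAP5* had log2 changes of 0.28 in *com2*Δ and 2.30 in BY4741 cells. *AFT1*, the main activator of iron uptake, had 0.23 in *com2*Δ and 0.82 in BY4741 cells, and its BY4741 value passed without BY4741 replicate 2 with SO2 (1.12) or the third BY4741 control array (1.07). The high affinity iron oxidase gene *FET3* had −0.35 in *com2*Δ and −0.16 in BY4741 cells and was not called. Of the other called genes, the ferric reductase gene *FRE2* was 2.59-fold lower in *com2*Δ than in BY4741 cells with SO2 (log2 change of −1.37, adjusted p = 0.000403), at 284, 182 and 239 in *com2*Δ cells against 457, 716 and 656 in BY4741 cells. Its difference of responses was −0.91, which passed without *com2*Δ replicate 1 with SO2 (−1.06), *com2*Δ control replicate 3 (−1.07), BY4741 replicate 1 with SO2 (−1.11), or BY4741 control replicate 1 (−1.0) or 2 (−1.03), and its BY4741 value of 0.83 passed without BY4741 replicate 1 with SO2 (1.02). *ENB1* fell in *com2*Δ cells (−1.09), a call lost without *com2*Δ replicate 2 with SO2 (−0.84) or *com2*Δ control replicate 1 (−0.99). *FRE1* fell in BY4741 cells (−1.37), and its *com2*Δ value of −0.88 passed without *com2*Δ replicate 3 with SO2 (−1.01) or *com2*Δ control replicate 3 (−1.0). The rise of *FIT1* in BY4741 cells (1.06) ended without BY4741 replicate 2 with SO2 (0.87).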

How the data were processed

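RNA was measured on 12 Affymetrix Yeast Genome 2.0 arrays. The deposited values are linear intensities, 1 for each probe set on each array. Per the paper, the authors took detection calls from MAS 5.0 and then used dChip for invariant set normalization and a perfect match model. MAS5 is the tool in the submitters' processing notes, without a version, and a genome build is not given in the sources used here. The paper and the labels differ in the labelling kit and in the number of arrays. An index from one model over all arrays, and a filter on detection that is not in the table, can affect dim genes most.

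Of 5716 probe sets, 5498 name 1 gene, 0 name several and 218 name none. All 5498 gene identifiers matched the RefSeq gene table of assembly R64, through which 12 symbols were updated. For 47 genes with several probe sets the brightest, by mean log2 value, was kept, which gave 5667 features. Log2 intensities were fitted with limma 3.58.1 in R 4.3.3, with 1 mean per group (8 residual and 3.24 prior degrees of freedom) and Benjamini-Hochberg adjustment over all features. The thresholds of 2-fold, p under 0.05 and a false discovery rate under 10% are those of the study, whose filters on detection and on a lower bound of the fold were left out. Adjusted p-values and standard errors come from these fits and set group differences against the spread between cultures. The fit was tested on simulated data. Python 3.11.15 with pandas 2.3.3, matplotlib 3.10.9 and numpy 2.4.6 gave the tables and plots.

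The members and lists were chosen with earlier results of these data known, so no list was tested as a set. Named genes are all members, the members of further lists called in the difference of responses, up to 2 further genes of a list called in each other comparison and the 3 genes nearest to each called member. *ISD11*, *ERV1*, *ACO1*, *AFT1* and *FET3*, and *MGE1* for its difference, were named outside this rule after their values were seen. *BOL1* was not analysed here. Alternatives were the replicate number as a block, each array left out, median centring, quantile normalization, 16 added to the intensities, the 25% dimmest features left out, only the arrays compared, array weights, trend and robust variances, no fold limit, and the mean of all probe sets. No promoter or protein sequence was used here.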

Additional observations from a re-analysis of the deposited data

Results flagged for a closer look

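The response to SO2 differed between the strains, by limma's interaction contrast, for 26 genes of the lists, which hold 10, 12, 12, 21 and 24 genes. Of all features 17.5% were called in this contrast, 8.17% upward and 9.30% downward. Values are log2 responses in *com2*Δ minus BY4741 cells. Among the mitochondrial assembly genes they were −2.26 for *ISU2*, −2.06 for *IBA57* and 1.02 for *JAC1*, with −1.56 for *YAH1* and −1.07 for *ATM1* among the other mitochondrial genes. In cytosolic assembly they were −1.93 for *CFD1*, −1.96 for *NAR1*, −1.38 for *CIA2*, −1.49 for *DRE2*, −1.07 for *TAH18* and −2.42 for *GRX4*. Among genes of iron-sulfur proteins they were 1.80 for *RIP1*, −1.95 for *LYS4*, −1.51 for *LEU1*, −1.35 for *ILV3*, −2.44 for *BIO2*, −1.16 for *LIP5*, −4.05 for *MET5* and −1.04 for *DNA2*. Among genes of iron uptake and its control they were −1.69 for *FIT1*, 2.03 for *FIT2*, 2.06 for *SIT1*, 2.03 for *HMX1*, 2.05 for *TIS11*, 1.14 for *FET4* and −2.02 for *YAP5*.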

How the results depend on the processing

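Of 237 alternative values for the 11 calls of members, 229 kept direction and call, 0 changed sign and 8 lost the call, all of them for the difference of responses of *JAC1* (0.94 after quantile normalization, 0.99 with 16 added, 0.70 with array weights, and 0.82 to 0.97 in the 5 fits without 1 array). Many of these fits could not move the log2 change, so the 229 are not independent checks. Leaving out an array of a group that was not compared cannot change it. Nor can the replicate block, trend and robust variances or a fit of only the arrays compared, which act on the p-value alone. The mean of probe sets changes nothing for members, since each has a single probe set. With array weights *NFS1* passed in BY4741 cells (1.02) and *ISA1* in the difference (−1.13).

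Small differences changed sign, none of them called. These were 0.00 for *GRX5* with SO2 in *com2*Δ cells, −0.07 for *ISU1* between strains with SO2 and 0.24 for *NFS1* between strains in control conditions, all with array weights, and 0.01 for the difference of *ISU1* after quantile normalization. With single arrays left out, *ISU1* ran from −0.04 to 0.07 with SO2, from −0.11 to 0.46 in control conditions and from −0.43 to 0.15 in the difference, *NFS1* from −0.19 to 0.25 in control conditions, and *GRX5* from −0.03 to 0.14 in the difference.

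With an adjusted p under 0.05 and no fold limit, SO2 in *com2*Δ cells gave 2 members higher and 2 lower, 1 other mitochondrial and 5 cytosolic genes higher, 2 genes of iron-sulfur proteins higher and 4 lower, and 4 iron genes higher and 8 lower. In BY4741 cells it gave 6 members higher and 2 lower, 6 other mitochondrial genes higher and 1 lower, 9 cytosolic genes higher, 8 genes of iron-sulfur proteins higher and 3 lower, and 8 iron genes higher and 7 lower. Between strains with SO2 it gave 2 members higher and 5 lower. In the difference it gave 1 member higher and 5 lower, 1 other mitochondrial gene higher and 5 lower, 7 cytosolic genes lower, 2 genes of iron-sulfur proteins higher and 10 lower, and 6 iron genes higher and 5 lower. Lists and directions not named here had 0 genes, or were not counted between strains.

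With array weights, 0 genes of iron-sulfur proteins were higher and 0 iron genes lower in *com2*Δ cells, and the difference held 0 members higher, 1 other mitochondrial gene higher and 4 iron genes lower. Leaving out the 25% dimmest features kept 11 of the 12 cytosolic genes, and *JAC1* and 9 iron genes were not tested. In that fit 1 iron gene was higher in *com2*Δ cells and 0 in BY4741 cells, and 0 members were higher between strains with SO2. The difference then held 0 members higher, 2 iron genes higher and 0 lower. Median centring left 1 iron gene higher in BY4741 cells, and in the difference 1 other mitochondrial gene lower and 2 genes of iron-sulfur proteins higher. Quantile normalization left 0 members higher and 1 other mitochondrial gene lower in the difference, and 16 added left 0 members higher.

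Without single arrays, counts in *com2*Δ cells ran from 0 to 1 genes of iron-sulfur proteins higher and from 0 to 2 iron genes lower, and between strains in control conditions from 0 to 1 members higher. In the difference they ran from 0 to 1 members higher, 2 to 3 members lower, 0 to 1 other mitochondrial genes higher, 1 to 3 lower, 1 to 2 genes of iron-sulfur proteins higher, 4 to 6 iron genes higher and 2 to 3 lower. In BY4741 cells they ran from 4 to 5 members, 5 to 6 cytosolic genes, 5 to 6 genes of iron-sulfur proteins and 2 to 3 iron genes higher.

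Arrays with the same replicate number deviated together with correlations of −0.278 to 0.471, so the numbers were not taken as pairs. With the replicate number as a block, 1 member was higher in *com2*Δ cells and 4 in BY4741 cells with SO2, and in the difference 1 was higher and 2 were lower, the same counts as without it. Signal limits dim genes most. All 10 members read above the deleted markers, but so did *STE3*, so this does not by itself show that they are expressed. All readings of *JAC1*, and some of *ISU2*, *IBA57*, *SSQ1* and *YFH1*, lay within the range of *STE3* (166 to 1084). Each further list also held genes with readings in that range. What this means for their values was not tested.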
